A study of Mus musculus with 29 samples.

Results

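The transforming growth factor beta (TGF-beta) ligands, their receptors, latent binding proteins and activin subunits were followed through heart failure and recovery in mouse hearts. The members were chosen by gene symbol, as the rows of the deposited mouse expression table for the ligands Tgfb1, Tgfb2 and Tgfb3, the receptors Tgfbr1, Tgfbr2 and Tgfbr3, the latent TGF-beta binding proteins Ltbp1 and Ltbp2, and the activin subunits Inhba and Inhbb. All 10 were found among the 29955 genes of the table. Levels are in FPKM, the fragments mapped to a transcript scaled for its length and for the size of the library, so levels of different genes can be set side by side.

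The hearts came from male C57BL6 mice (C57BL/6J in the study's methods) that were 3 months old at the start. In the heart failure (HF) groups the drinking water carried L-NAME (0.3 mg/ml), which blocks nitric oxide synthase, together with NaCl (1%), and after week 1 an osmotic pump delivered 0.7 mg/kg/day of angiotensin II, a hormone that raises blood pressure. The full induction took 5 weeks of water and 28 days of pump, and HF week 3 hearts were taken before its end, at week 3. The recovery groups had the same induction and then plain water without the pump's hormone, and the controls were age matched mice outside the intervention. With weeks counted from the start of induction, 24 libraries were used. Control week 19 and Recovery week 19 had 5 libraries each, HF week 5 and Recovery week 11 had 3 each, and HF week 3 and Recovery weeks 7, 9 and 13 had 2 each. Control week 19 served as the control for every comparison, so HF week 5 was compared with mice 14 weeks further into the study, and the age difference cannot be told apart from the treatment. The study ran its experiment in several cohorts, and no label says which library belongs to which. No label states that the libraries of a group came from separate mice, so each p-value measures the spread between libraries only.

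Several libraries stood apart in measures that do not use the members. Library 1 of HF week 3 listed 12816 genes above 0, against 16339 to 18091 in the 23 others, and its low values did not move in steps of whole fragments, as those of the other libraries did. The relative depth of those 23 libraries, read from the steps, was 0.767 to 1.38 of the mean control depth, and the absolute depth is unknown. The 10 most abundant genes held 27.9% to 37.4% of all FPKM in the 9 libraries of Recovery weeks 7 to 13, against 14.6% to 18.8% in the 13 libraries of Control week 19, HF week 5 and Recovery week 19. In HF week 3 they held 19.8% in library 1 and 37.5% in library 2. The tissue is labelled as heart or ventricle, whole in both cases, and the study's methods describe apical tissue. Summed FPKM of 7 cardiomyocyte markers lay between 15250 and 28050 over all libraries, but the 5 atrial markers (Myl7, Myl4, Sln, Bmp10 and Dkk3) summed to 39860, 421.7 and 17.5 FPKM in HF week 5 libraries 1, 2 and 3 and to 7765 and 14100 in the HF week 3 libraries, against 5.51 to 8.94 in the controls and 4.05 to 15.1 in all recovery libraries. The atrial sum was thus highest in library 1 of HF week 5 and in both HF week 3 libraries, although 1 of the 5 markers was at 0 in each HF week 3 library, and the calls of the members are also given without these libraries.

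TGF-beta ligands are secreted bound to their own propeptide, and the latent binding proteins tie that inactive complex to fibrils of the extracellular matrix. Once released, a ligand binds the type II receptor, which activates the type I receptor, and Smad2 and Smad3 carry the signal to the nucleus. In the heart the pathway is best known for driving fibroblasts to deposit collagen. Activins are related ligands, dimers of the inhibin beta subunits, that signal through Smad2 and Smad3 as well.

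Promoter sequence was taken from RefSeq (GRCm38.p6), as 250 bases before to 50 bases after the annotated start, a window of 300 bases. A window was found for 8 of the 10 members, 10 windows in all, and none for Tgfb3 or Tgfbr3. The windows of Ltbp2 and Tgfb2 are shown because these are the members whose difference between HF week 5 and the controls was kept under every alternative tried. Capitals mark CAGAC, the core of the Smad binding element, on either strand, where the other strand reads GTCTG. Both genes lie on the minus strand, and the sequences read 5′ to 3′ along the gene, Ltbp2 from chr12:84876442-84876741 and Tgfb2 from chr1:186705940-186706239.
Ltbp2: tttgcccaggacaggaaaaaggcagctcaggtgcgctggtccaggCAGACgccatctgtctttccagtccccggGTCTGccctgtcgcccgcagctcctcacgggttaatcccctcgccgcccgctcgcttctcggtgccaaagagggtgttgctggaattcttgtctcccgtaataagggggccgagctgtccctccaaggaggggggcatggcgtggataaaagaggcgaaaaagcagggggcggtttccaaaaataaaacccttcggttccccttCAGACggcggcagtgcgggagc
Tgfb2: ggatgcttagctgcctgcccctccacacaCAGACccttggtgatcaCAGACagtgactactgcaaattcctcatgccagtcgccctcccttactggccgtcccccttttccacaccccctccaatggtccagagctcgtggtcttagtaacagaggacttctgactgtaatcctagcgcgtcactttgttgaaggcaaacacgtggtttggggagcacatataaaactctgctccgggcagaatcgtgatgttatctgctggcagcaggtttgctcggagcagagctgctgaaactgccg

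The Ltbp2 window held 3 CAGAC matches and the Tgfb2 window 2. The matches of Tgfb2 began 221 and 204 bases before the start, and those of Ltbp2 began 205 and 176 bases before it, with the last after it. CAGAC was present in 6 of the 10 member windows, from 5 of the 8 members, against 49.6% of all 32851 RefSeq windows. At least 2 matches were found in 16.2% of all windows and at least 3 in 3.9%. Among the other members, Ltbp1 held 2 matches in a window and 1 in another, Tgfbr2 held 1, and Tgfbr1 held 1 in a window and 0 in another. Neither Ltbp1 nor Tgfbr2 passed the test of HF week 5 against the controls given below. The AP-1 motif TGANTCA, where N is any base, was found on either strand in 0 of the 10 member windows and in 7.81% of all windows. A match is a run of letters and not evidence that a factor binds there.

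By week 5 of heart failure, transcripts of 2 of the 3 ligands, of the type I receptor and of Ltbp2 were higher than in the controls. Among the members that passed the test, Ltbp2 showed the largest ratio of group means, 7.75, followed by Tgfb2 at 2.05, Tgfb3 at 1.61 and Tgfbr1 at 1.49. Tgfb1, the most abundant ligand, did not pass. Only the differences of Ltbp2 and Tgfb2 were kept under all 17 alternatives, and those of Tgfb3 and Tgfbr1 did not pass without library 1 of HF week 5. A linear model (limma) was fitted to log2(FPKM + 0.5) of 12759 genes, and p-values were adjusted over all of them by the Benjamini-Hochberg method. Of the 10 members, 9 reached the mean of 0.5 FPKM needed for the test, and Inhba did not. In HF week 5 against Control week 19, 4 of the 9 were called higher at an adjusted p under 0.05 and 0 lower, where 11.6% of all genes tested were called higher and 24.0% in either direction. The median log2 fold change was 0.49 over the 9 members and 0.04 over all genes tested. In whole tissue, more RNA per cell and more cells of a type cannot be told apart.

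**Figure D1:**
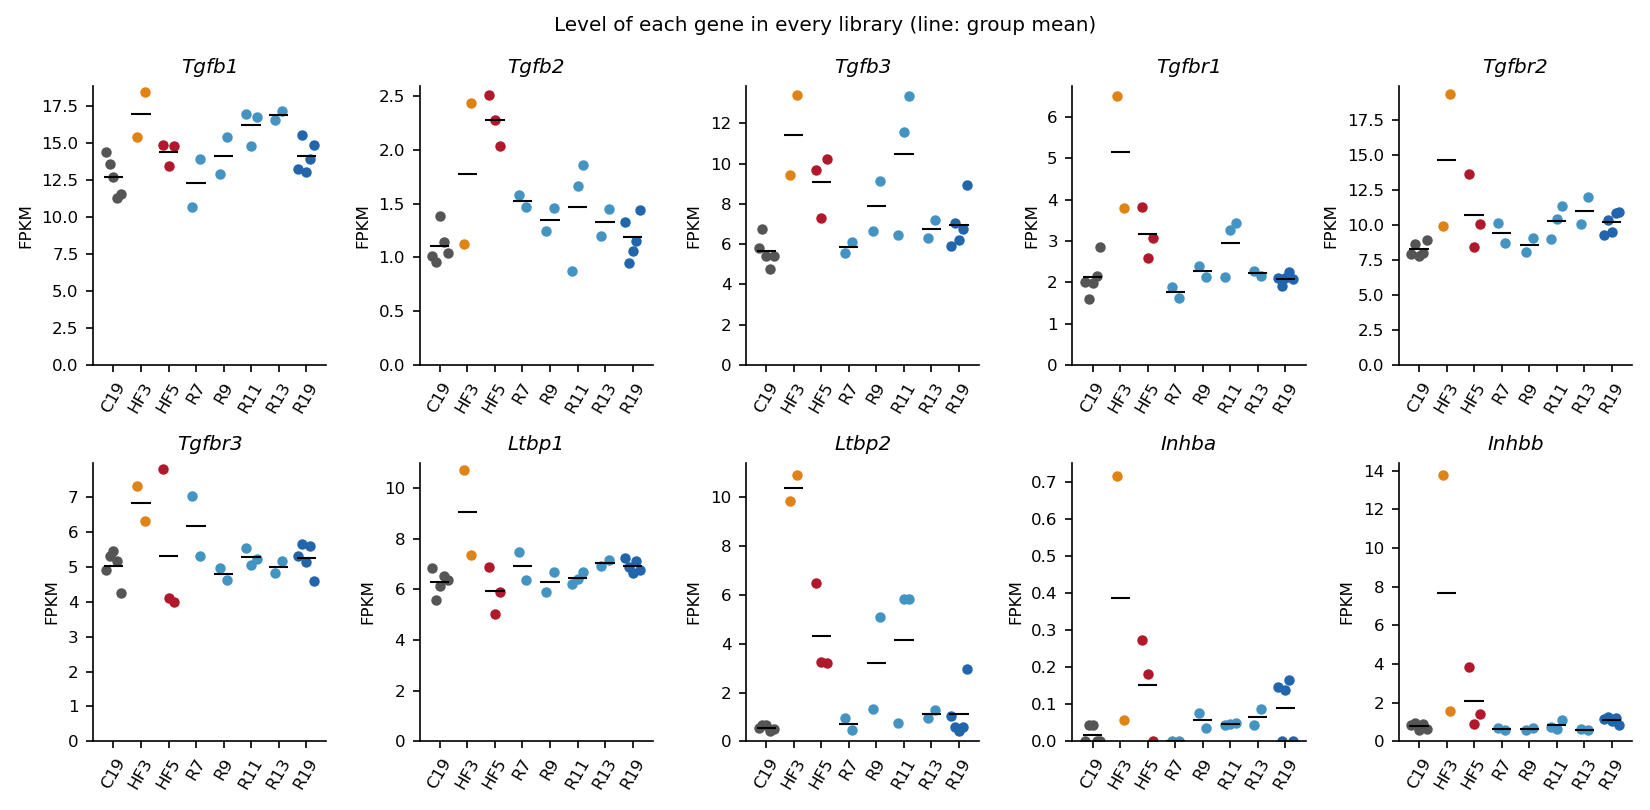
Level of each of the 10 genes in FPKM (vertical axis, from 0) in every library, by group (horizontal axis: C19, Control week 19; HF3 and HF5, heart failure weeks 3 and 5; R7 to R19, recovery weeks 7 to 19). Points are libraries and lines are group means, and Ltbp2 stands at 3.22 to 10.9 FPKM in the 5 heart failure libraries and at 0.420 to 0.678 in the 5 controls.

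Tgfb1 encodes the founding ligand of the family and was the most abundant of the 3 ligands in every library. Its level was 14.4, 13.6, 12.7, 11.3 and 11.6 FPKM in the controls and 14.9, 13.5 and 14.8 in HF week 5. The groups overlapped, and the mean was 14.4 ± 0.804 FPKM (SD, n = 3) in HF week 5 and 12.7 ± 1.31 (SD, n = 5) in the controls. The log2 fold change of 0.18 did not pass the test (limma, adjusted p = 0.260, 95% interval -0.05 to 0.40). Over all 24 libraries Tgfb1 ranged from 10.7 to 18.5 FPKM, the narrowest fold range of the 9 tested members at 1.73. Its highest means were in HF week 3, at 17.0 ± 2.15 FPKM (SD, n = 2), and in Recovery week 13, at 16.9 ± 0.435 (SD, n = 2).

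Tgfb2, a ligand that relies on the co-receptor betaglycan for high-affinity binding, was the scarcest of the 3. The controls held 1.01, 0.958, 1.38, 1.14 and 1.04 FPKM, and the HF week 5 libraries held 2.51, 2.28 and 2.03. Every HF week 5 library lay above every control. The log2 fold change was 0.79 with a standard error of 0.186 (limma, adjusted p = 0.0050). An exact two-sided permutation test on this gene alone gave p = 0.0357, the smallest that 56 arrangements of 3 and 5 libraries allow. The call was kept under all 17 alternatives, with adjusted p between 0.000939 and 0.0368, the highest without library 1 of HF week 5. In HF week 3 the libraries differed from each other, with 1.12 FPKM in library 1 and 2.44 in library 2.

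Tgfb3 encodes a ligand made by cardiac fibroblasts and many other mesenchymal cells. The controls held 5.79, 6.75, 5.43, 4.78 and 5.42 FPKM, and HF week 5 held 9.70, 7.28 and 10.2. The groups did not overlap, although library 2 of HF week 5 lay close to the highest control. The log2 fold change was 0.64 with a standard error of 0.193 (limma, adjusted p = 0.0226; exact permutation p = 0.0357). The call was lost in 4 of 17 alternatives, with adjusted p = 0.105 without HF week 5 library 1, 0.0932 without library 3, 0.0543 without control library 4 and 0.0573 with no filter on low values.

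Set against each other, the ligands shifted in proportion. Tgfb1 made up 65.3% ± 1.59 (SD, n = 5) of the summed FPKM of the 3 ligands in the controls and 56.1% ± 2.12 (SD, n = 3) in HF week 5. Tgfb3 made up 28.9% ± 1.85 in the controls and 35.1% ± 3.15 in HF week 5. The share of Tgfb2 was 5.75% ± 1.13 and 8.89% ± 1.25. The highest Tgfb1 share in HF week 5, 58.5%, was below the lowest in the controls, 63.9%, and the summed level was 25.7 ± 2.36 FPKM against 19.5 ± 1.83. In Recovery week 19 the shares were 63.6% ± 2.71, 5.33% ± 0.894 and 31.1% ± 2.50 (SD, n = 5) for Tgfb1, Tgfb2 and Tgfb3. The mean Tgfb1 share in HF week 5 was 56.6% without library 1. These shares are descriptions and were not tested.

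**Figure D2:**
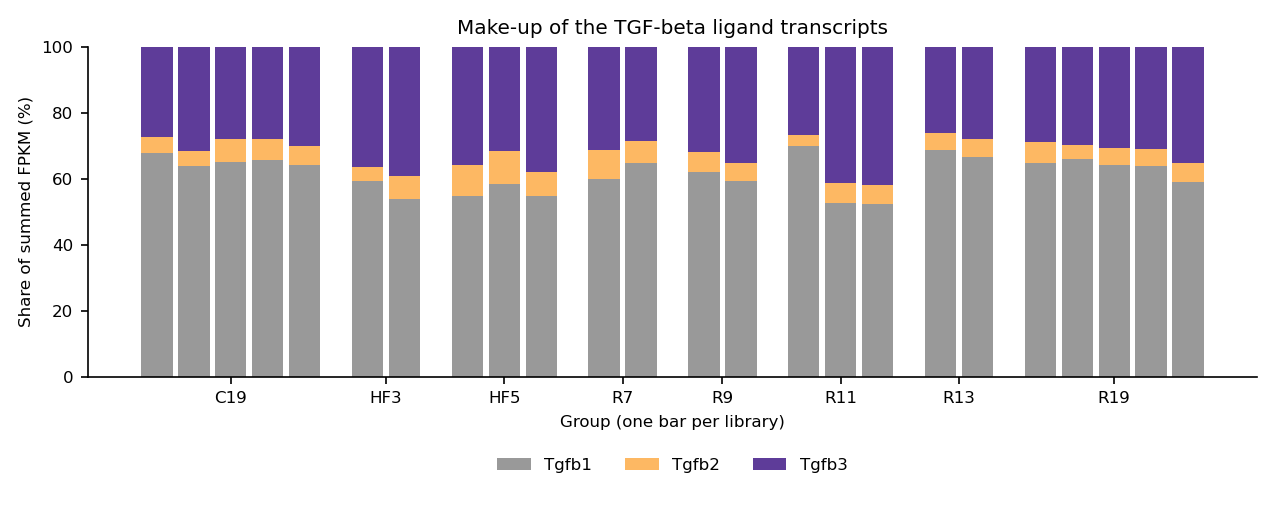
Share of Tgfb1, Tgfb2 and Tgfb3 in their summed FPKM (vertical axis, percent) in every library, one bar per library, by group (C19, control; HF, heart failure; R, recovery; numbers are weeks). The Tgfb1 share was 54.7% to 58.5% in HF week 5 and 63.9% to 67.9% in the controls, and in Recovery week 11 libraries 2 and 3 it was 52.8% and 52.4% against 69.9% in library 1.

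Among the receptors, Tgfbr1 was called and Tgfbr2 and Tgfbr3 were not. Tgfbr1, the type I receptor kinase that phosphorylates Smad2 and Smad3, stood at 2.01, 1.58, 1.99, 2.15 and 2.86 FPKM in the controls and at 3.83, 2.58 and 3.07 in HF week 5. Library 2 of HF week 5 lay below control library 5, so the groups overlapped. The log2 fold change was 0.49 with a standard error of 0.171 (limma, adjusted p = 0.0444; exact permutation p = 0.0714). This call was kept in 7 of 17 alternatives, and the adjusted p ranged from 0.0145 to 0.247, the highest without library 1 of HF week 5.

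Tgfbr2, the type II receptor that binds ligand first, was the most abundant of the 3 receptors in every group mean. Controls lay between 7.80 and 8.92 FPKM, with a median of 7.96, and HF week 5 held 13.7, 8.44 and 10.1. The log2 fold change of 0.33 did not pass (limma, adjusted p = 0.150, 95% interval -0.01 to 0.68). Tgfbr3, betaglycan, held 7.80, 4.11 and 4.01 FPKM in HF week 5 against 4.26 to 5.46 in the controls. Libraries 2 and 3 were thus below every control and library 1 above every control, and the log2 fold change was 0.01 (limma, adjusted p = 0.958).

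The latency proteins behaved differently from each other. Ltbp1 binds the latent complex covalently and helps deposit it in the matrix. It held 5.59 to 6.83 FPKM in the controls and 6.89, 5.04 and 5.89 in HF week 5, with a log2 fold change of -0.08 that did not pass (limma, adjusted p = 0.631, 95% interval -0.32 to 0.15). Ltbp2 shares the family's domain structure but does not bind latent TGF-beta, and it associates with fibrillin and elastic fibres. It held 0.540, 0.658, 0.678, 0.420 and 0.492 FPKM in the controls and 6.498, 3.24 and 3.22 in HF week 5. The groups were well apart, and the lowest HF week 5 library was above the highest control. The log2 fold change was 2.13 with a standard error of 0.480 (limma, adjusted p = 0.0039; exact permutation p = 0.0357). The call was kept under all 17 alternatives, with adjusted p from 0.00323 to 0.0394. Library 3, whose atrial marker sum was 17.5 FPKM, held 3.22 FPKM of Ltbp2, and library 1, whose atrial sum was 39860, held 6.498.

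The other latent binding proteins, which were not members, set the scale. In the controls Ltbp4 was the most abundant at 76.4 ± 17.8 FPKM, followed by Ltbp3 at 9.47 ± 1.18, Ltbp1 at 6.29 ± 0.469 and Ltbp2 at 0.558 ± 0.110 (SD, n = 5 each). Ltbp2 was therefore the scarcest of the 4 in the controls. In HF week 5 its mean of 4.32 ± 1.89 FPKM (SD, n = 3) still lay below the 5.94 ± 0.923 of Ltbp1.

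The activin subunits were scarce. Inhba, the inhibin beta A subunit, was listed at 0 in 8 of 24 libraries and exceeded 0.3 FPKM only in library 1 of HF week 3, at 0.716. Inhbb, the beta B subunit, held 0.586 to 0.931 FPKM in the controls and 3.86, 0.908 and 1.44 in HF week 5. Library 2 lay within the control range, and the log2 fold change of 0.84 did not pass (limma, adjusted p = 0.139, 95% interval 0.00 to 1.69). Without library 1 of HF week 5 it was 0.38 (adjusted p = 0.624).

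Over all roles, 3 of 9 tested members did not overlap between HF week 5 and the controls (Tgfb2, Tgfb3 and Ltbp2), where 29.5% of all genes tested did not overlap. Without library 1 of HF week 5, the highest in atrial markers, Tgfb2 and Ltbp2 were called higher, where 4.21% of all genes tested were. Tgfb3 and Tgfbr1 were not called, at log2 fold changes of 0.58 and 0.36 against 0.64 and 0.49 with it. Those of Tgfb2 and Ltbp2 were 0.73 and 1.82 against 0.79 and 2.13. That fit still held library 2, whose atrial sum was also above the controls. When both HF week 3 libraries were left out of the fit, an alternative chosen after seeing the data, 6 of 9 were called higher, with Inhbb (adjusted p = 0.0126) and Tgfbr2 (adjusted p = 0.0409) added, and the share of all genes tested that were called higher went from 11.6% to 17.4%. The mesothelial and epicardial markers moved with the same libraries, with summed levels of 83.1, 31.3 and 11.4 FPKM in HF week 5 libraries 1, 2 and 3 and 1.99 to 3.28 in the controls, and 4 of 5 were called higher. Of the fibroblast markers, which summed to 782.5, 372.3 and 626.4 FPKM in HF week 5 and 256.0 to 402.3 in the controls, 4 of 6 were called higher. The endothelial markers summed to 371.0, 323.4 and 410.7 FPKM in HF week 5 and 229.4 to 273.9 in the controls, and 3 of 6 were called higher. Of the smooth muscle markers 1 of 4 was called higher, of the cardiomyocyte markers 2 of 7 were called lower, and of the macrophage markers 0 of 7 and the platelet markers 0 of 4 were called. The part of these cell types in the levels of the members was not tested.

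At week 3 of induction more of the members were high, on libraries that were less alike. Against Control week 19, 7 of the 9 tested members were called higher in HF week 3, where 23.1% of all genes tested were, and all 9 had a higher mean. The groups did not overlap for 8 of 9, against 45.3% of all genes tested. Cell type markers moved in the same libraries, with 5 of 7 cardiomyocyte markers called lower and 4 of 6 endothelial, 3 of 6 fibroblast, 3 of 4 platelet, 4 of 4 tested atrial and 4 of 5 mesothelial and epicardial markers called higher. Of the endothelial markers 1 was called lower, of the macrophage markers 2 of 7 were higher and 1 lower, of the smooth muscle markers 1 of 4 was higher and 1 lower, and of the 2 tested lymphocyte markers 1 was higher. The cardiomyocyte sums of 15250 and 15540 FPKM were the lowest of all libraries, and the mesothelial and epicardial sums were 72.9 and 231.2 FPKM against 1.99 to 3.28 in the controls. Their part in the levels of the members was not tested. Ltbp2 held 9.84 and 10.9 FPKM, a log2 fold change of 3.37 with a standard error of 0.550 (limma, adjusted p = 7.7e-05). Tgfbr1 held 6.51 and 3.81 FPKM, a log2 fold change of 1.09 (adjusted p = 0.00019). Tgfb3 held 9.46 and 13.4 FPKM, a log2 fold change of 0.95 (adjusted p = 0.0017). These 3 calls were kept under all 15 alternatives for this comparison.

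The remaining week 3 calls did not hold with 1 of the HF week 3 libraries left out, although for these members both libraries lay above every control. With 1 library left out, HF week 3 is a single library, whose spread is then assumed to be that of the other groups. Inhbb held 13.8 FPKM in library 1 and 1.55 in library 2, and without library 1 its log2 fold change fell from 2.09 to 0.69 (adjusted p = 0.160). Ltbp1 held 10.7 and 7.35 FPKM, and without library 1 its log2 fold change was 0.21 (adjusted p = 0.255). Tgfbr2 held 9.91 and 19.4 FPKM and Tgfb1 15.4 and 18.5, and without library 2 neither passed (adjusted p = 0.238 and 0.123). Tgfb2, not called with both libraries (adjusted p = 0.0862), had a log2 fold change of 0.88 without library 1 (adjusted p = 0.0078). The correlation between the pair of HF week 3 libraries was 0.885 across the genes tested, against 0.952 to 0.984 between HF week 5 libraries, and genes are not independent replicates.

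By week 19, after the agents had been withdrawn, 3 of the 4 members raised in HF week 5 were lower than there. In Recovery week 19 against HF week 5, 3 of 9 members were called lower and 0 higher, where 12.0% of all genes tested were called lower. This comparison shares the HF week 5 libraries with the one above, so both carry the same 3 values. It also sets hearts of week 19 against hearts of week 5, so the age difference cannot be told apart from the recovery. Markers called lower in it were 4 of 4 tested atrial, 5 of 5 mesothelial and epicardial, 2 of 6 fibroblast, 2 of 6 endothelial and 2 of 4 smooth muscle markers, and 2 of 7 cardiomyocyte markers were called higher, whose part was not tested. Ltbp2 held 1.03, 0.579, 0.432, 0.589 and 2.99 FPKM in Recovery week 19, and its log2 fold change was -1.69 with a standard error of 0.480 (limma, adjusted p = 0.0154). All 5 lay below the lowest HF week 5 library, with library 5 close to it, and the groups did not overlap for 3 of 9 members, against 26.7% of all genes tested. Tgfb2 held 1.33, 0.948, 1.05, 1.16 and 1.44 FPKM and changed by -0.72 (adjusted p = 0.0088). Tgfbr1 held 1.92 to 2.25 FPKM and changed by -0.49 (adjusted p = 0.0437).

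Among the raised members, only Tgfb3 missed the threshold in this comparison. Tgfb3 held 5.92, 7.03, 6.19, 6.75 and 8.92 FPKM in Recovery week 19. Its log2 fold change of -0.36 against HF week 5 did not pass (limma, adjusted p = 0.188, 95% interval -0.76 to 0.05). The interval of the called Tgfbr1, -0.85 to -0.13, overlapped it, and no test compared the members with each other. Tgfb1, Tgfbr2, Tgfbr3, Ltbp1 and Inhbb were not called either, with log2 fold changes between -0.52 for Inhbb and 0.22 for Ltbp1. Without library 1 of HF week 5, 0 of 9 were called in this comparison, where 5.27% of all genes tested were called lower and 6.86% higher. The adjusted p was then 0.0511 for Tgfb2, 0.104 for Ltbp2 and 0.235 for Tgfbr1 (limma). Their log2 fold changes were -0.66, -1.39 and -0.36, against -0.72, -1.69 and -0.49 with all libraries. The call of Tgfbr1 was kept in 7 of 17 alternatives, that of Ltbp2 in 15 and that of Tgfb2 in 16.

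Against the controls of the same week, 0 of 9 members were called in Recovery week 19 by limma, and 0 at an unadjusted p under 0.05, where 0.0235% and 2.88% of all genes tested were. The log2 fold changes ran from 0.00 for Tgfbr1 to 0.43 for Ltbp2, whose 95% interval was -0.43 to 1.30. Without library 5 of Recovery week 19 the value of Ltbp2 was 0.11. For Tgfb3 the interval was -0.07 to 0.63, and for Tgfb2 it was -0.27 to 0.40. Tgfbr2 was the single member whose groups did not overlap, at 9.26 to 10.9 FPKM in Recovery week 19 and 7.80 to 8.92 in the controls, where 1.17% of all genes tested did not overlap. Its log2 fold change of 0.29 did not pass the test (unadjusted p = 0.0593, 95% interval -0.01 to 0.58).

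**Figure D3:**
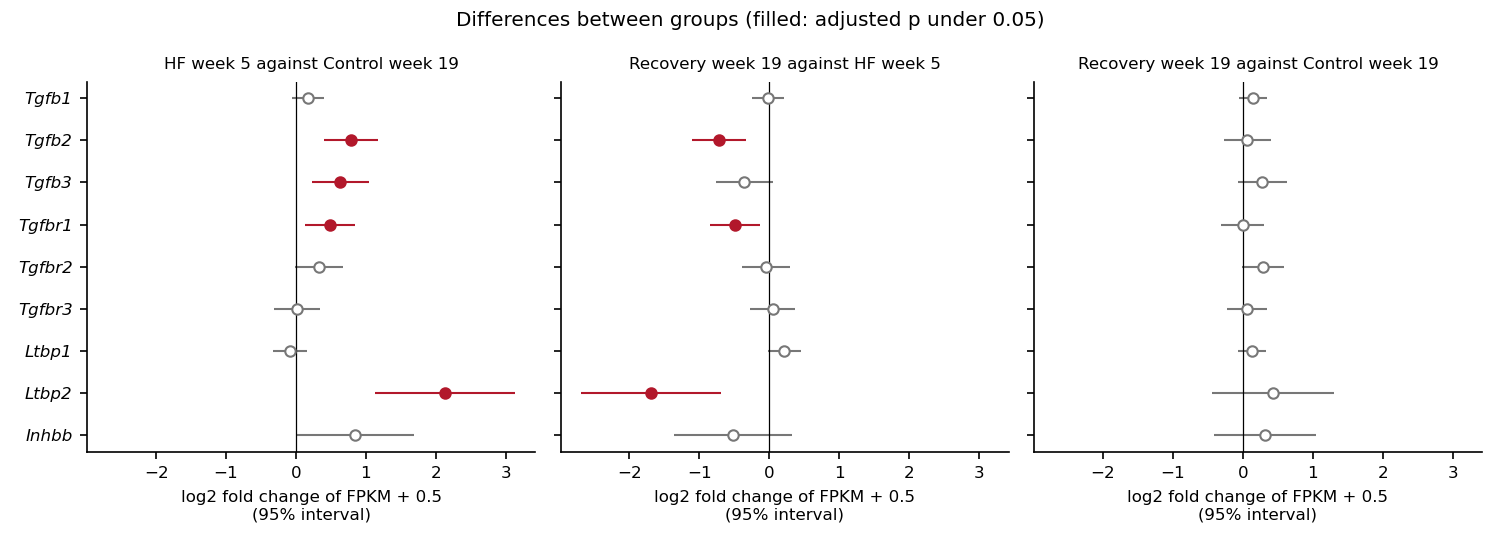
Log2 fold change of FPKM + 0.5 (horizontal axis) with its 95% interval for the 9 tested members in 3 comparisons, with filled points at an adjusted p under 0.05 (limma). Ltbp2 has the largest fold change in the first panel, 2.13, and the most negative in the second, -1.69, and no point is filled in the third.

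Between these end points the levels did not fall evenly. In Recovery week 7, 2 weeks after the agents stopped, Ltbp2 held 0.964 and 0.462 FPKM, Tgfb3 5.55 and 6.12, and Tgfbr1 1.88 and 1.62. All of these lay below every HF week 5 library, and 5 of 9 members did not overlap, against 50.4% of all genes tested. Against HF week 5, Ltbp2 was called lower at a log2 fold change of -1.95 (limma, adjusted p = 0.0351) and Tgfbr1 at -0.69 (adjusted p = 0.0369), which makes 2 of 9, where 6.75% of all genes tested were called lower. Leaving out either Recovery week 7 library ended both calls, in a test of 1 library whose spread is assumed to be that of the other groups. Without library 1 of HF week 5 neither was called (adjusted p = 0.135 and 0.147) and Tgfbr3 was called higher at 0.54 (adjusted p = 0.0307), and without library 3 Tgfbr1 was not called (adjusted p = 0.0636). In this comparison 4 of 4 tested atrial, 4 of 5 mesothelial and epicardial, 3 of 6 endothelial, 2 of 6 fibroblast, 2 of 7 macrophage and 1 of 4 smooth muscle markers were called lower and 1 of 7 cardiomyocyte markers higher. The Recovery week 7 libraries are also among those with a high share of FPKM in 10 genes, and the part of either was not tested.

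Later in recovery single libraries were high again. In Recovery week 9 Ltbp2 held 1.34 FPKM in library 1 and 5.08 in library 2. In Recovery week 11 it held 0.741, 5.84 and 5.85, and in Recovery week 13 0.9755 and 1.27. Library 2 of week 9 and libraries 2 and 3 of week 11 were thus within the range of HF week 5, and the other 4 libraries of weeks 9 to 13 were not. These levels are descriptions, with no test.

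Tgfb3 was high in the same libraries. It held 6.65 and 9.14 FPKM in Recovery week 9, 6.45, 11.6 and 13.4 in Recovery week 11, and 6.32 and 7.21 in Recovery week 13. Tgfbr1 held 2.13, 3.27 and 3.43 FPKM in Recovery week 11, again low in library 1 and high in the others, and Tgfb2 held 0.873, 1.67 and 1.86. In Recovery week 9 Tgfbr1 went the other way, with 2.39 FPKM in library 1 and 2.14 in library 2, and Tgfb2 held 1.25 and 1.45. Tgfb1 did not share the split of week 11, at 17.0, 14.8 and 16.8 FPKM. Within Recovery week 11 the fibroblast markers summed to 459.4, 571.7 and 778.6 FPKM, and the atrial markers to 8.21, 14.6 and 15.1. The mesothelial and epicardial markers summed to 2.18, 0.994 and 1.41 FPKM there, within or below the control range. The macrophage markers summed to 403.5, 317.1 and 430.8 FPKM and the smooth muscle markers to 83.4, 78.9 and 63.7, neither of which followed the split. The endothelial markers summed to 244.2, 220.6 and 220.1 FPKM, highest in library 1. In Recovery week 9, libraries 1 and 2, the fibroblast markers summed to 381.9 and 449.0 FPKM and the macrophage markers to 169.4 and 299.0. The endothelial markers summed to 219.8 and 237.8 FPKM there, and the mesothelial and epicardial markers to 2.365 and 1.827. The part of these cell types was not tested.

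Over all 24 libraries the levels of Ltbp2 and Tgfb3 went together, with a Pearson correlation of log2(FPKM + 0.5) of 0.897. It was 0.890 over the 22 libraries outside HF week 3 and 0.901 over the 14 recovery libraries alone. Ltbp2 correlated with Tgfb2 at 0.695 and with Tgfb1 at 0.514 over the 24 libraries. Libraries of a group share their treatment, so these values are a description and carry no p.

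**Figure D4:**
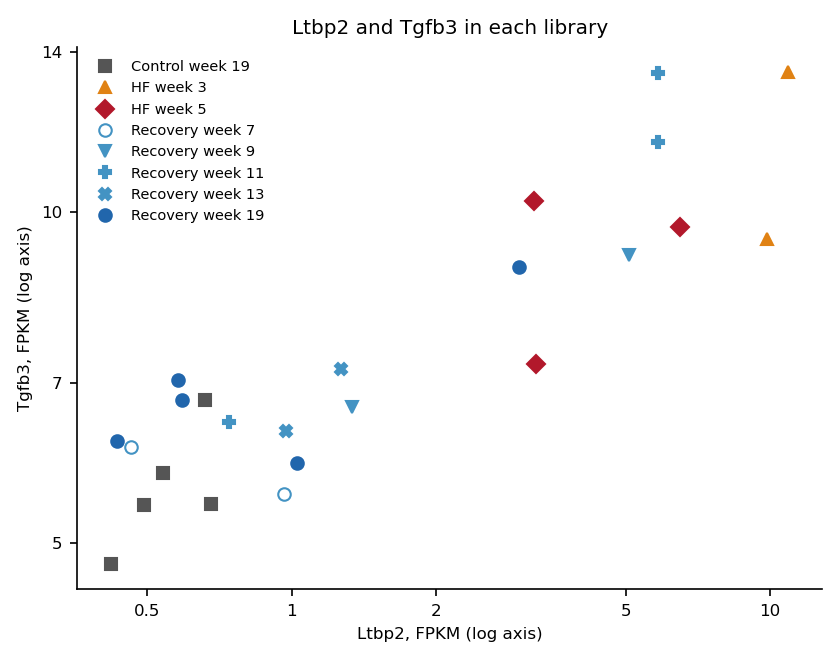
Ltbp2 (horizontal) against Tgfb3 (vertical) in FPKM, both on log axes, with 1 point per library and a symbol for each group. The points with Ltbp2 above 2.9 FPKM are the 5 heart failure libraries, library 2 of Recovery week 9, libraries 2 and 3 of Recovery week 11 and library 5 of Recovery week 19, and all hold 7.28 FPKM of Tgfb3 or more.

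The genes whose pattern over the 24 libraries was most like that of Ltbp2, by the same correlation, were Cilp at 0.966, Comp at 0.948 and Fmod at 0.948, which encode proteins of cartilage and connective tissue matrix. Cilp held 1.12 ± 0.105 FPKM (SD, n = 5) in the controls and 10.04 ± 2.11 (SD, n = 3) in HF week 5. For Tgfb3 they were Mfap4 at 0.920, Serpinf1 at 0.915 and Comp at 0.914. Mfap4, a microfibril-associated protein, is also 1 of the 6 fibroblast markers, and Comp is also in the list of target genes below. For Tgfb2 they were Fzd2, a Wnt receptor, at 0.883, Cdk5rap2 at 0.848 and AK142077 at 0.844. For Tgfb1 they were Grn at 0.858, Cfl1 at 0.835 and Vat1 at 0.819.

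The receptors and the remaining members had other neighbours. Tgfbr1 was most like mKIAA1902 at 0.924, Abi1 at 0.922 and Lpar1 at 0.921. Tgfbr2 was most like Il27ra at 0.900, Timp2 at 0.890 and Stxbp2 at 0.851, and Tgfbr3 most like Slc45a3 at 0.808, Snx24 at 0.807 and Spock2 at 0.7998. Ltbp1 was most like Uap1 at 0.825, Topbp1 at 0.817 and Mrfap1 at 0.816, and Inhbb most like B4galt6 at 0.951, Il17ra at 0.948 and Col23a1 at 0.939. Several of these correlations were lower over fewer libraries. That of Ltbp1 with Uap1 was 0.604 over the 22 libraries outside HF week 3 and 0.120 over the 14 recovery libraries. That of Inhbb with B4galt6 was 0.845 and 0.402 over the same sets, and that of Tgfbr3 with Slc45a3 was 0.752 and 0.424. Ltbp2 with Cilp gave 0.953 and 0.960.

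Other genes of the pathway were described in 5 lists, by their place in it. In the list of latency, activation and storage genes, 5 of 15 tested genes were higher in HF week 5 and 1 was lower, where 11.6% and 12.4% of all genes tested were. The median log2 fold change was 0.17. Fbn1, which encodes the fibrillin that anchors the latent binding proteins, rose by 0.75 on the log2 scale with a standard error of 0.175 (limma, adjusted p = 0.0046), and Ltbp3 by 0.60 (adjusted p = 0.0050). Itgb3 and Itgav, subunits of an integrin that can release latent TGF-beta, rose by 0.97 (adjusted p = 0.0080) and 0.66 (adjusted p = 0.0081). Itgb5 rose by 0.35 (adjusted p = 0.0393). Furin, the protease that cleaves the TGF-beta propeptide and one of the genes named after their values were seen, fell by 0.65 (adjusted p = 0.0125). Ltbp4, the most abundant binding protein, was not called, at 84.5 ± 13.04 FPKM in HF week 5.

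Among Smads and their regulators, which act downstream of the receptor, 0 of 13 tested genes were higher and 1 was lower, with a median of -0.01, against the same 11.6% and 12.4% of all genes tested. The lower gene was Zfyve9, which encodes SARA, an adaptor that presents Smad2 and Smad3 to the receptor, at a log2 fold change of -0.71 with a standard error of 0.120 (limma, adjusted p = 0.0005). Smad2 and Smad3 changed by -0.01 and 0.10 and were not called. Among other receptors of the pathway 1 of 8 was higher, Eng, the endothelial co-receptor endoglin, at 133 ± 78.6 FPKM in HF week 5 and a log2 fold change of 0.67 (adjusted p = 0.0405). Of the activin and inhibin partners and antagonists, 2 of 7 were expressed enough to test, and 0 were called.

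Textbook TGF-beta target genes were mostly higher. In HF week 5, 13 of 15 tested genes were called higher and 1 lower, where 11.6% and 12.4% of all genes tested were, and the median log2 fold change was 0.96. Comp, a matrix protein of cartilage and tendon, rose by 3.25 with a standard error of 0.488 (limma, adjusted p = 0.00019). Ctgf, a matricellular growth factor, rose by 2.16 (adjusted p = 5.3e-06), Postn, the matricellular protein periostin, by 1.81 (adjusted p = 0.00084) and Fn1, fibronectin, by 1.17 (adjusted p = 0.00036).

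**Figure D5:**
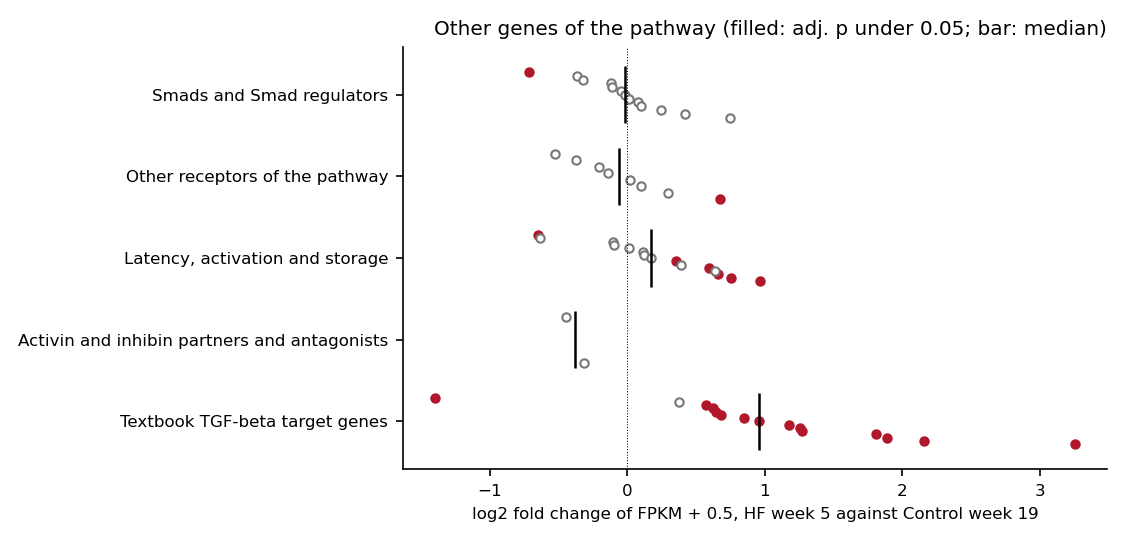
Log2 fold change of FPKM + 0.5 (horizontal axis) in HF week 5 against Control week 19 for each tested gene of the 5 pathway lists (rows), with filled points at an adjusted p under 0.05 (limma) and a bar at each list's median. The target genes have a median of 0.96, and the medians of the other 4 lists lie between -0.38 and 0.17.

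Without library 1 of HF week 5, 7 of 15 target genes were called higher and 0 lower, with a median of 0.87, where 4.21% and 6.42% of all genes tested were. Among the latency genes Fbn1 (adjusted p = 0.0274) and Furin (0.0324) were called and the other 4 were not. Zfyve9, Comp, Ctgf, Postn and Fn1 were called without it as well, but Eng (log2 fold change 0.22, adjusted p = 0.429) was not. Without library 3, 11 target genes were called higher, and without library 2, 12. The list was chosen with earlier results of these samples known, so its counts are a description. In Recovery week 19 against HF week 5, 11 of 15 target genes were called lower and 1 higher, with a median of -0.93, where 12.0% and 12.3% of all genes tested were. Of the 15 latency genes 4 were lower, among them Fbn1 and Ltbp3, and Furin was higher (log2 fold change 0.71, adjusted p = 0.0073). These counts, without library 1 of HF week 5, were 5 target genes lower and 0 higher, and 1 latency gene lower and 1 higher (Fbn1 and Furin), where 5.27% of all genes tested were lower and 6.86% higher. Against the controls, 0 genes of the 5 lists were called by limma in Recovery week 19. Ctgf held 21.9 ± 6.49 FPKM (SD, n = 5) there and 22.5 ± 4.25 in the controls, against 104 ± 33.3 in HF week 5.

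In Recovery week 11, where Ltbp2 and Tgfb3 were high in libraries 2 and 3, Comp had a mean of 9.67 ± 5.47 FPKM and Ctgf of 48.8 ± 5.68 (SD, n = 3). Postn had a mean of 10.8 ± 5.31 FPKM there, against 5.34 ± 1.82 in the controls and 21.3 ± 11.8 in HF week 5. These intermediate weeks are descriptions, with no test.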

How the data were processed

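RNA of mouse hearts was poly(A) selected and sequenced as paired ends. The authors aligned reads with TopHat to mouse build mm9 and computed FPKM per gene with Cuffdiff, and these deposited FPKM values were the unit used here, with no counts. Columns were assigned to groups by name. The 5 columns under the week 5 control name were not used, since 4 samples carry that label, and Recovery week 9 has 2 columns for 3 labelled samples.

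In all 24 libraries of 8 groups, log2(FPKM + 0.5) was fitted for 12759 genes, those whose mean reached 0.5 FPKM, with limma 3.58.1 in R 4.3.3 (a mean per group, 16 residual degrees of freedom, moderated variance with a trend), with two-sided Benjamini-Hochberg adjusted p called under 0.05. Fold changes are on that log2(FPKM + 0.5) scale, which understates the change of low genes. The fit was tested on simulated data. Single members were also tested by exact permutation (scipy 1.17.1). A fold of group means is a ratio of FPKM. Group values are mean ± SD.

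Named genes were all members, the 4 genes of each list with the smallest p among those called in HF week 5, any list gene called in Recovery week 19 against the controls, and the 3 genes most correlated with each member. Outside this rule, Itgb5, Furin, Smad2, Smad3 and Ltbp4 were named after their values were seen. The members, lists and tests were chosen with earlier results of these data known. Alternatives covered the pseudocount (0.1 and 1), the filter, the scaling, the threshold, the variance, the groups in the fit and each library left out. For 1 target gene the counts include it but its own values are not reported here.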

Additional observations from a re-analysis of the deposited data

Results flagged for a closer look

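Ltbp2 in library 5 of Recovery week 19 stood at 2.99 FPKM, far from the nearest of the 4 other libraries of that group at 1.03. The gap was 0.767 of the group's range, above the limit of 0.710 for 5 libraries, and it was the 1 flag among 20 groups of values examined, where chance flags about 1 in 20. The same library held the highest Tgfb3 of its group, 8.92 FPKM, and its fibroblast markers summed to 513.1 FPKM against 331.1 to 507.8 in the others. It was also highest of its group in the summed macrophage markers (429.3 FPKM), platelet markers (98.3), lymphocyte markers (2.38), cardiomyocyte markers (24790) and atrial markers (7.42), and its relative depth of 0.767 was the lowest of its group. The part of these was not tested. Without this library the log2 fold change of Ltbp2 against the controls was 0.11 in place of 0.43.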

How the results depend on the processing

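No paired analysis was possible, because in the study's design each mouse was killed at a single time point. The columns also carry no replicate letters that match the labels. The number of members called in HF week 5 against Control week 19 was 4, and 2 with no filter on low values, and leaving out each library gave 2 to 4. In Recovery week 19 against HF week 5 it was 3, with 1 under no filter and 0 to 3 with each library left out. In HF week 3 against Control week 19 it was 7, with 4 when only the groups compared were fitted and 5 to 7 with each library left out. In Recovery week 7 against HF week 5 it was 2, with 0 under no filter, 1 under median centring, 1 under quantile normalization and 0 when only the groups compared were fitted, and 0 to 2 with each library left out. The cause was not tested. Of the single-member values under alternatives, 668 kept direction and side of the threshold, 47 lost a call, 6 gained 1 and 17 changed sign, all 17 of them uncalled. Tgfbr3 in HF week 5 against the controls became -0.0451 under median centring and -0.03998 under quantile normalization, and leaving out libraries gave -0.27 to 0.17. Ltbp1 there became 0.0198 without HF week 5 library 2, in a range of -0.187 to 0.0198. In Recovery week 19 against HF week 5, Tgfb1 became 0.0329 and Tgfbr2 0.0102 under median centring, and leaving out libraries gave -0.07025 to 0.0033 for Tgfb1, -0.198 to 0.133 for Tgfbr2 and -0.107 to 0.334 for Tgfbr3. Tgfbr1 in Recovery week 19 against the controls became 0.0026 at a pseudocount of 0.1, with -0.0785 to 0.0935 over libraries left out, and Tgfbr2 in Recovery week 7 against HF week 5 ran from -0.304 to 0.0268. The scalings shifted the median of all genes by -0.0635 to 0.0575. Absolute depth is unknown, so no counting interval can be given for scarce members such as Inhba.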
